A study of Mus musculus with 8 samples.

Results

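In all, 10 genes of the glucocorticoid response were followed across 8 mouse hearts: the corticosterone-induced genes Fkbp5, Tsc22d3, Sgk1, Klf9, Zbtb16, Cdkn1a, Mt1, Mt2 and Ddit4, and Nr3c1, the gene of the glucocorticoid receptor. They were chosen by name, all 10 were measured among 22180 genes, and each was read by 1 probe set. RNA came from the hearts of 4 females and 4 males, all 8 months old and all Pcyt2+/-, so that every heart carried the same loss of 1 allele of Pcyt2, whose enzyme makes a precursor of phosphatidylethanolamine. Wild-type hearts were not analysed here. Hearts were taken 3 to 4 hours after lights on, and 100 ng of total RNA was labelled for 8 short-oligonucleotide arrays. Hearts are named by sex and the replicate number of the labels.

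Corticosterone, the main glucocorticoid of mice, enters cells and binds a receptor that waits in the cytoplasm in a complex with heat shock protein 90 and its partner proteins. The loaded receptor moves to the nucleus and binds DNA at glucocorticoid response elements, palindromes of a hexamer spaced by a short gap. In heart muscle the receptor is known to act on calcium handling, energy use and survival, and blood corticosterone follows a daily rhythm and rises with stress. The genes studied here are widely used as readouts of that receptor. Several also answer to other signals: Mt1 and Mt2 to zinc, Cdkn1a to p53, and Ddit4 to hypoxia and amino acid shortage.

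The start regions of 3 of these genes are shown because they carry the DNA elements that the genes are known for. Promoter windows were taken from RefSeq on GRCm38.p6, from 250 bases before to 50 bases after each annotated start, and 8 of the 10 genes matched, with 16 windows. The perfect element, AGAACA followed by any 3 bases and TGTTCT, was searched on both strands and occurred in 1 of these 16 windows, upstream of 1 of the 6 starts of Sgk1, beginning 189 bases before that start. It occurred in 0.00913% of all 32851 windows searched. The metal response element core, TGCACNC or TGCGCNC on either strand, occurred in 25.7% of all windows. It matched 4 times in the window of Mt2 and 3 times in that of Mt1, neighbours on chromosome 8 whose starts lie 6471 bases apart. At least 4 matches were found in 0.517% of all windows. The shorter core ACANNNTGT, which is part of the perfect element, occurred in 6.85% of all windows and in 3 of the 16, among them that of Mt1. The single hexamer AGAACA, also part of the perfect element, occurred in 19.0% of all windows and in 4 of the 16. A match is a run of letters and not a shown binding site. Below, the windows are Sgk1 at chr10:21993640-21993939, Mt1 at chr8:94178839-94179138 and Mt2 at chr8:94172368-94172667, all on the plus strand and written 5′ to 3′. Capitals mark the perfect element in Sgk1 and the metal response cores in Mt1 and Mt2.
Sgk1: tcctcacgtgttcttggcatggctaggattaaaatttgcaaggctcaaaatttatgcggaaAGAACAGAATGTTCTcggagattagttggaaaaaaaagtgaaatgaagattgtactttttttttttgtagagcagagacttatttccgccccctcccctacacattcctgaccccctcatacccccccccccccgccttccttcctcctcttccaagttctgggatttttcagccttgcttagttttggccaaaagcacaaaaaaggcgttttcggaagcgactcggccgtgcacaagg
Mt1: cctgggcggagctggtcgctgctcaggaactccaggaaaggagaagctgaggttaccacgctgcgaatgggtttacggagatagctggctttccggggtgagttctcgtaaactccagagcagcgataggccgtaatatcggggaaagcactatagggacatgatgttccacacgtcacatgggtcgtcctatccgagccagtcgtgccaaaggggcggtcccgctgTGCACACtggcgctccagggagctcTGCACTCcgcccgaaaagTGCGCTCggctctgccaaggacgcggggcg
Mt2: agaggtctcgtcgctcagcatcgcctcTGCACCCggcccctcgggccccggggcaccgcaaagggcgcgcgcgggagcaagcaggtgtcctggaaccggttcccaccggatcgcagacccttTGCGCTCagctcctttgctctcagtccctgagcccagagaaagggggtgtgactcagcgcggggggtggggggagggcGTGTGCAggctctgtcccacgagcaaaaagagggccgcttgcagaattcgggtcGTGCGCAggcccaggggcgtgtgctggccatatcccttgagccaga

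The deposited values are log2 values from which each probe set's own median over the 8 hearts had been subtracted. A value of 0.5 therefore means a heart 0.5 above the median heart for that gene, and no level can be compared between genes or called present or absent. Array medians lay between -0.0021 and 0.0023 and interquartile ranges between 0.0718 and 0.0822. Some hearts stood apart for genes of other tissues. The mean of 6 liver marker genes was 0.33 in female 1 and 0.66 in female 2, against -0.092 to 0.056 in the other hearts. In female 1 this rested mainly on Alb, at 1.76, while the other liver genes ran from -0.24 for Ahsg to 0.27 for Serpina1c. In female 2 Alb was 2.69 and the others ran from 0.15 for Ahsg to 0.41 for Apoa1. The mean of 8 fast skeletal muscle genes was 0.35 in female 1, 0.60 in male 1 and 0.88 in male 2, against -0.25 to 0.11 elsewhere. The mean of 6 atrial genes ran from -1.13 in female 1 to 0.50 in female 2. Cardiomyocyte markers, the defining genes of the labelled myocardium, differed little, with a mean of 8 genes between -0.080 and 0.026.

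The 9 corticosterone-induced genes tended to be high or low in the same hearts. In female 3 all 9 lay above their own medians, and their mean was 0.27. In female 4, 8 of the 9 lay above, with a mean of 0.20. In male 4 all 9 lay below, with a mean of -0.34. Females 1 and 2, at -0.15 and -0.19, and male 3, at -0.13, were also low, while males 1 and 2 lay near the middle at 0.028 and 0.071. Low hearts thus occurred in both sexes, while the highest means were those of females 3 and 4. The receptor gene Nr3c1 kept within 0.10 of its median in every heart.

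**Figure D1:**
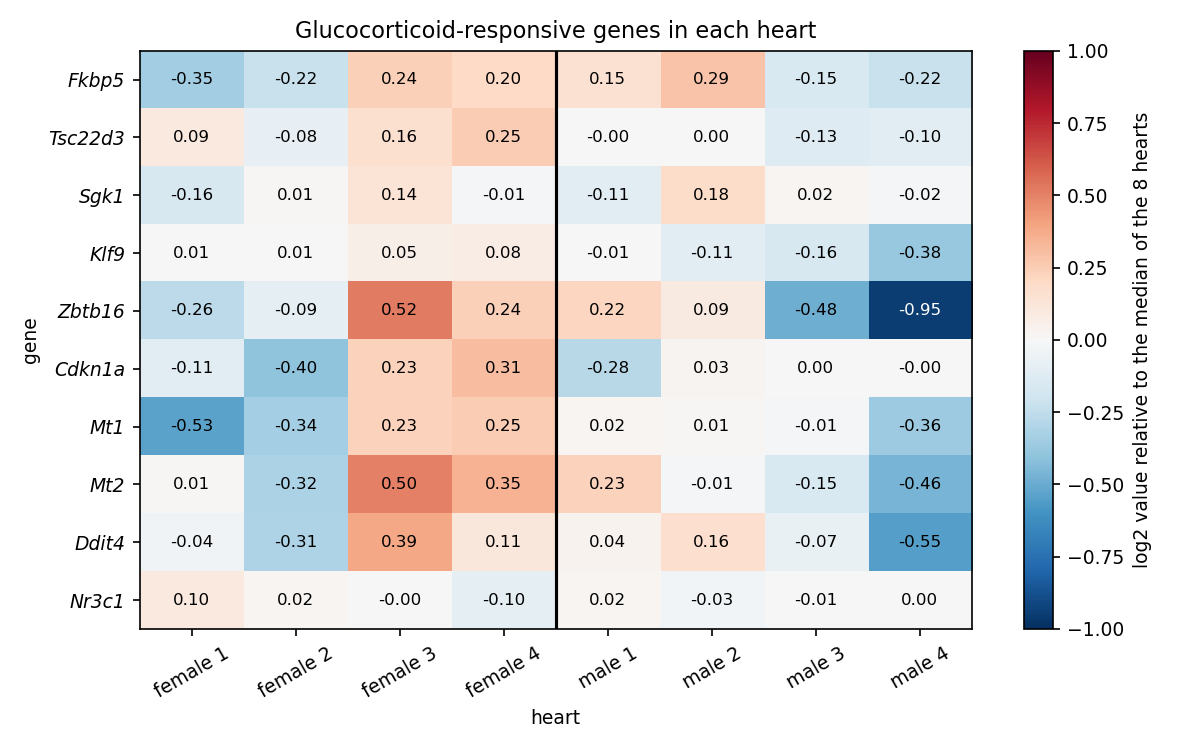
Value of each of the 10 genes (rows) in each heart (columns, females left of the line, males right), as log2 relative to the gene's median over the 8 hearts; red is above and blue below. Female 3 was above the median for all 9 induced genes and male 4 below it for all 9, and the row of Nr3c1 is nearly white.

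Fkbp5 encodes a co-chaperone that binds the receptor complex and lowers its affinity for hormone, a classical feedback target. It was -0.35, -0.22, 0.24 and 0.20 in females 1 to 4, against 0.15, 0.29, -0.15 and -0.22 in males 1 to 4. The sexes overlapped fully, and the highest heart, male 2, was 1.55-fold above the lowest, female 1. Tsc22d3, which encodes the anti-inflammatory protein GILZ, was 0.095, -0.083, 0.16 and 0.25 in the females and -0.0049, 0.0049, -0.13 and -0.10 in the males. Females 3 and 4 were the highest for Tsc22d3, and males 3 and 4 the lowest.

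Sgk1 encodes a kinase that controls ion channels and transporters. It was -0.16, 0.0083, 0.14 and -0.0083 in the females, against -0.11, 0.18, 0.019 and -0.016 in the males, a 1.27-fold range that was the narrowest of the 9 induced genes. Male 2 and female 3 were the highest and female 1 the lowest, so that only part of its order matched that of Fkbp5.

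Klf9, the gene of a zinc finger repressor, was 0.0060, 0.0062, 0.055 and 0.077 in the females and -0.0060, -0.11, -0.16 and -0.38 in the males. It was the only one of the 10 genes whose female and male values did not overlap, a pattern that 3.74% of all 22180 genes showed. Zbtb16, which encodes the transcription factor PLZF, had the widest range of the 10, 2.78-fold. It was -0.26, -0.086, 0.52 and 0.24 in the females, against 0.22, 0.086, -0.48 and -0.95 in the males. Male 4 was lowest for both transcription factor genes.

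Cdkn1a encodes p21, the inhibitor of cyclin-dependent kinases. It was -0.11, -0.40, 0.23 and 0.31 in the females and -0.28, 0.028, 0.00024 and -0.00024 in the males. Its highest hearts were females 4 and 3, and its lowest were female 2 and male 1. Ddit4, which encodes the mTORC1 inhibitor REDD1, was -0.037, -0.31, 0.39 and 0.11 in the females, against 0.037, 0.16, -0.075 and -0.55 in the males. Its lowest heart was male 4 and its highest female 3, 1.92-fold apart.

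Mt1 and Mt2 encode metallothioneins, small cysteine-rich proteins that bind zinc and copper. Mt1 was -0.53, -0.34, 0.23 and 0.25 in the females and 0.018, 0.0079, -0.0079 and -0.36 in the males. Mt2 was 0.0095, -0.32, 0.50 and 0.35 in the females, against 0.23, -0.0095, -0.15 and -0.46 in the males. Both were high in females 3 and 4 and low in female 2 and male 4, and they differed most in female 1, where Mt1 had its lowest value and Mt2 lay near its median. Since these neighbouring genes are close relatives in sequence, some signal shared between their probe sets was not tested. Nr3c1 was 0.097, 0.017, -0.0043 and -0.099 in the females and 0.022, -0.031, -0.0071 and 0.0043 in the males.

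These genes were among the more variable ones in the hearts. The SD over the 8 hearts was 0.47 for Zbtb16, 0.33 for Mt2, 0.29 for Mt1 and Ddit4, 0.25 for Fkbp5 and 0.24 for Cdkn1a, against a median of 0.075 over all genes. Between 99.0% and 99.8% of all genes had a smaller SD than these 6. Klf9, Tsc22d3 and Sgk1 had SDs of 0.15, 0.14 and 0.11, larger than in 93.5%, 89.9% and 81.6% of genes. Nr3c1, at 0.055, varied less than the median gene, and 28.3% of genes had a smaller SD. In whole hearts a change in the number of cells of a type and a change in RNA per cell cannot be told apart.

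The shared rise and fall was measured by correlation over the 8 hearts. Of the 36 pairs among the 9 induced genes, 35 had a positive Pearson's r, and the median r was 0.639. Over all 245965110 pairs of measured genes, 50.1% were positive and the median was 0.0011, and among the quintile of genes with the highest SD 50.4% were positive and the median was 0.0048. The one negative pair, Sgk1 and Klf9, had an r of -0.0620. An r of at least 0.7 was reached by 13 of the 45 pairs of the 10 genes, or 28.9%, against 2.8% of all gene pairs, 2.92% of pairs of genes with at least the median SD and 3.11% of pairs within the quintile of highest SD. With each sex centred on its own mean, 35 of the 36 pairs were still positive, with a median r of 0.655. Pairs that share a gene are not independent, and these counts are a description.

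**Figure D2:**
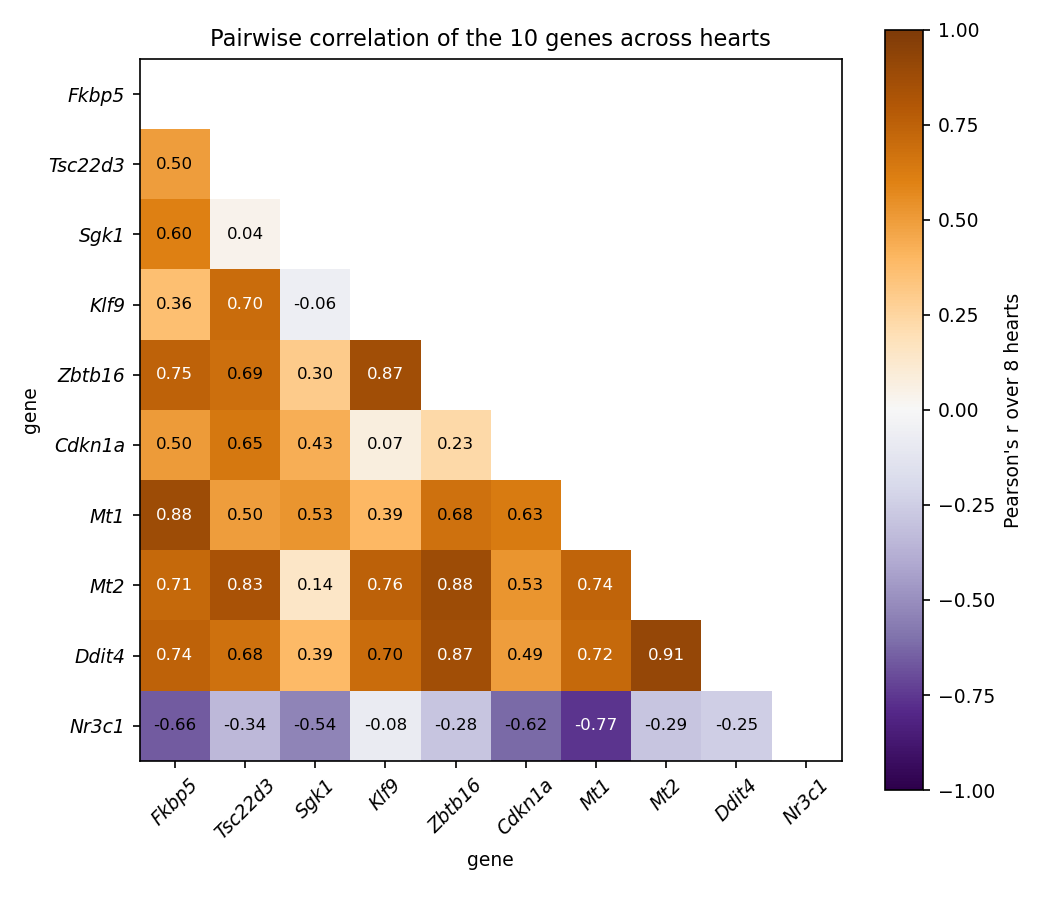
Pearson's r over the 8 hearts for each of the 45 pairs of the 10 genes, orange for positive and purple for negative. The block of Zbtb16, Mt2 and Ddit4 reached 0.910, the columns of Sgk1 and Cdkn1a are paler, and the 9 values of Nr3c1 in the bottom row are all below 0.

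No single pair passed when all 45 were tested together. Of the 45 pairs, 0 passed an adjusted p of 0.05 (exact two-sided permutation test over all pairings of the hearts, Benjamini-Hochberg over the 45 pairs) and 15 had an unadjusted p under 0.05, 13 positive and 2 negative. That is 33.3% of the pairs, against 5.26% of all pairings of one of the 10 genes with any measured gene. With Spearman's rho 0 passed and 16 had an unadjusted p under 0.05. The count that passed depended on single hearts: it was 4 without female 1, 3 without female 2, 2 without male 2 and 0 without each of the other hearts. It was 3 when the receptor gene was left out and 36 pairs were adjusted.

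Mt2 and Ddit4 had the highest r, 0.910 (exact p = 0.00139, adjusted p = 0.0551), with a rho of 0.857 (exact p = 0.0107, adjusted p = 0.0865). Only 0.149% of all genes had a higher r with Mt2 than Ddit4 did. Without female 3 and male 4, the hearts farthest from the median of Mt2, r was 0.764 (exact p = 0.0667), so part of the relation rests on those hearts.

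Fkbp5 and Mt1 had an r of 0.881 (exact p = 0.00293, adjusted p = 0.0551) and a rho of 0.833 (exact p = 0.0154, adjusted p = 0.0865). Without female 1 and male 2, the hearts farthest from the median of Fkbp5, r was 0.904 (exact p = 0.00833). Zbtb16 and Mt2 followed, with an r of 0.876 (exact p = 0.00367, adjusted p = 0.0551) and a rho of 0.881 (exact p = 0.00724, adjusted p = 0.0865). Without female 3 and male 4 that r was 0.680 (exact p = 0.136). These 3 pairs had r of 0.908, 0.884 and 0.853 with each sex centred on its mean (exact p from permutations within the sexes 0.0104, 0.0139 and 0.0139, adjusted p = 0.0781 each).

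**Figure D3:**
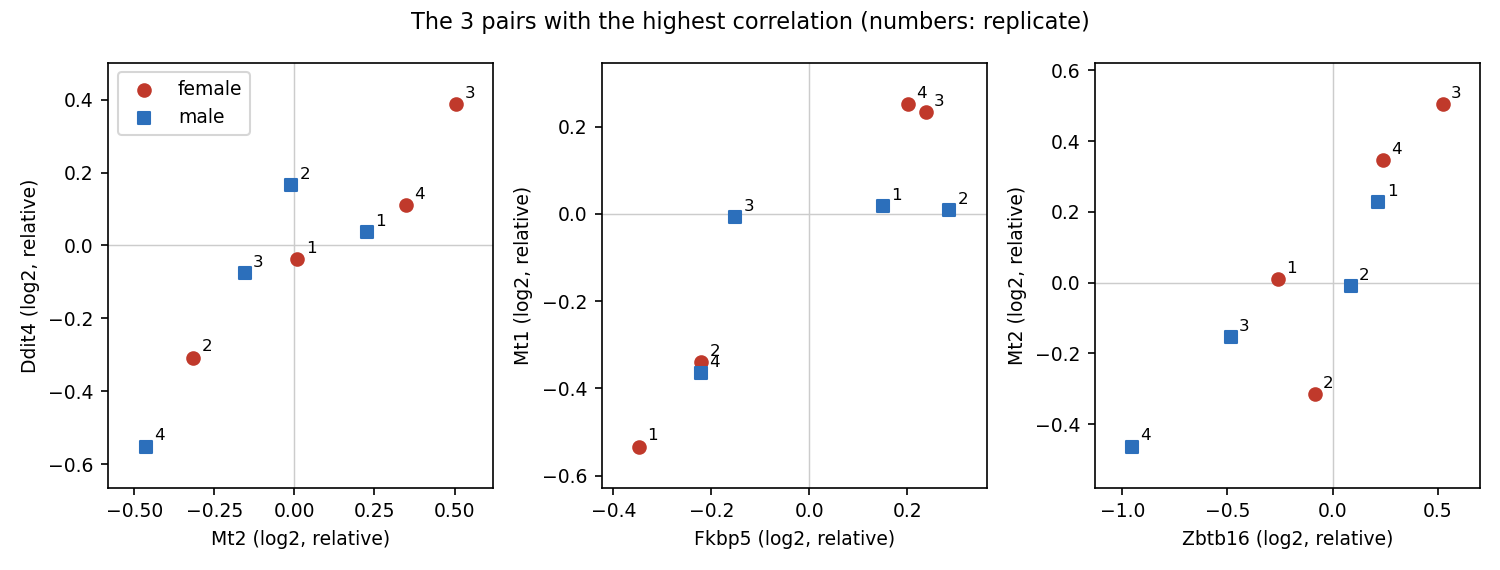
Mt2 against Ddit4, Fkbp5 against Mt1 and Zbtb16 against Mt2, each point a heart (red circles females, blue squares males, numbers the replicate), both axes in log2 relative to the gene's median. Hearts of both sexes lie along each rising band, with female 3 at or near the top right and male 4 at or near the bottom left.

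Zbtb16 with Ddit4 and Klf9 with Zbtb16 had r of 0.867 and 0.866 (exact p = 0.00913 and 0.0148, adjusted p = 0.0896 each) and rho of 0.857 and 0.786. These relations rested in part on the outermost hearts: without those farthest from the median, female 3 and male 4 for the first pair and males 3 and 4 for the second, r was 0.482 and 0.346. Tsc22d3 with Mt2 had an r of 0.830 (exact p = 0.0123, adjusted p = 0.0896), or 0.653 without females 3 and 4. Mt1 with Mt2 had an r of 0.741 (exact p = 0.0390, adjusted p = 0.145), or 0.898 without female 1 and male 4. The hearts left out were in each case the 2 farthest from the median of 1 gene of the pair, the one listed first at the opening. All 15 pairs with an unadjusted p under 0.05 kept their sign without these, and 4 of them had an unadjusted p under 0.05 in the remaining 6 hearts. Since the 15 were picked by their p in the same hearts, a kept sign says little. Of all 36 pairs of induced genes 33 were positive in this setting, with a median r of 0.487, against 35 and 0.639 with all hearts.

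The genes did not share the pattern equally. Against the mean of the other induced genes, r was 0.916 for Mt2, 0.908 for Ddit4, 0.845 for Zbtb16, 0.821 for Fkbp5, 0.813 for Mt1 and 0.747 for Tsc22d3. It was 0.658 for Klf9, 0.506 for Cdkn1a and 0.385 for Sgk1, and neither Cdkn1a nor Sgk1 had a pair with an unadjusted p under 0.05 for Pearson's r. For Spearman's rho each had 1, Sgk1 with Fkbp5 at 0.738 (exact p = 0.0458, adjusted p = 0.129) and Cdkn1a with Nr3c1. Sgk1 was thus the induced gene least like the other induced genes, with r from -0.0620 with Klf9 to 0.602 with Fkbp5. These r values describe the same 8 hearts and carry no test.

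The receptor gene tended the other way, though no pair passed adjustment. All 9 of its r values with the induced genes were negative, with a median of -0.342. Over all genes 48.3% had a positive r with the mean of the 9. The share of all genes with a higher r than Nr3c1 ran from 56.4% for Klf9 to 98.6% for Mt1. The 9 values are not independent, since the induced genes are correlated with each other. The largest r in size were with Mt1 at -0.765 (exact p = 0.0159, adjusted p = 0.0896; rho -0.619) and with Fkbp5 at -0.660 (exact p = 0.0486, adjusted p = 0.145; rho -0.690). Without the 2 hearts farthest from the median of Mt1 or Fkbp5 these were -0.602 and -0.434. By rank the strongest was with Cdkn1a, with a rho of -0.833 (exact p = 0.0154, adjusted p = 0.0865) and an r of -0.617, and with Sgk1 rho was -0.690. The weaker r of -0.342 with Tsc22d3 turned to 0.650 without females 3 and 4. Nr3c1 varied over only 0.20 on the log2 scale, from female 4 to female 1, so its order rests on small differences.

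Neither the induced genes nor the receptor gene differed between the sexes past the threshold. Of the 10 genes, 0 had an adjusted p under 0.05 in limma over 22180 genes, where 7 genes, or 0.0316%, passed. At an unadjusted p under 0.05 there were 2 of the 10, against 6.96% of all genes. Klf9 averaged 0.036 ± 0.036 in females and -0.16 ± 0.16 in males (SD, n = 4 each), a difference of 0.20 (95% interval 0.040 to 0.36, limma adjusted p = 0.633), or 0.13 without male 4. The X-linked gene Tsc22d3 averaged 0.11 ± 0.14 in females and -0.057 ± 0.067 in males (SD, n = 4 each), a difference of 0.16 (95% interval 0.0082 to 0.32, limma adjusted p = 0.696).

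Adipocyte markers were higher in females in 7 of 7 genes, with a median difference of 0.28, while 11007 of all 22180 genes were higher in females. Of the 7, 3 had an unadjusted limma p under 0.05, against 6.96% of all genes. Atrial and liver markers were also higher in females, in 6 of 6 genes each. Fast skeletal muscle markers were higher in males in 8 of 8. Of 6 fibroblast markers 3 had an unadjusted limma p under 0.05, Col1a1 and Col3a1 higher in males and Dpt higher in females. So did 2 of 6 endothelial markers, Cdh5 and Kdr, higher in males, and 1 of 5 lymphocyte markers, Cd3g, higher in females. The part of any of these lists in the differences of Klf9 and Tsc22d3 was not tested.

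For the other genes the SD in at least 1 sex was larger than the difference between the sexes. Zbtb16 averaged 0.10 ± 0.35 in females and -0.28 ± 0.54 in males (SD, n = 4 each), and its difference of 0.39 had a 95% interval from -0.21 to 0.98 (limma adjusted p = 0.832). It was 0.25 without female 3 and 0.16 without male 4. When genes below the median spread were left out, limma gave Zbtb16 an adjusted p of 0.0362. That setting raised limma's prior degrees of freedom to 132, against 3.05 with all genes, and so drew each gene's variance close to a common value. Mt2 averaged 0.14 ± 0.37 in females and -0.10 ± 0.29 in males, and Ddit4 0.038 ± 0.29 in females and -0.11 ± 0.31 in males (SD, n = 4 each), with differences of 0.24 and 0.14. That of Mt2 was 0.11 without female 3, 0.12 without male 4 and 0.39 without female 2. Fkbp5, Sgk1, Cdkn1a, Mt1 and Nr3c1 had differences of -0.049, -0.024, 0.068, -0.010 and 0.0052. The intervals of Fkbp5 (-0.41 to 0.31) and Mt1 (-0.42 to 0.40) leave differences of either direction possible.

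**Figure D4:**
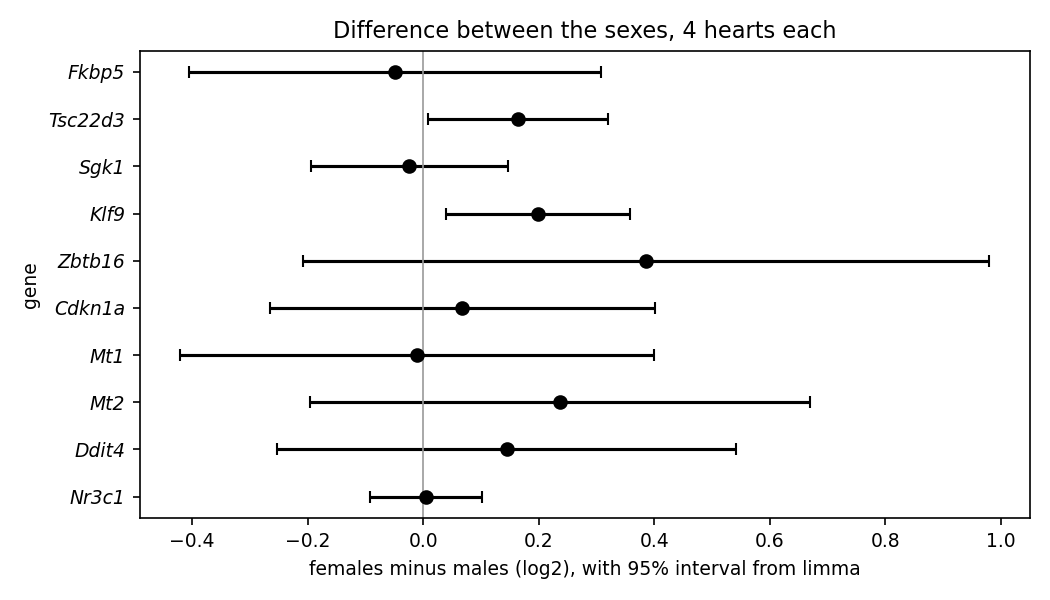
Difference between the sexes, females minus males, for each gene on the log2 scale, with the 95% interval from limma (n = 4 hearts each). The intervals of Klf9 (0.040 to 0.36) and Tsc22d3 (0.0082 to 0.32) lie above 0 before adjustment, and the other 8 include 0.

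Other genes known to answer glucocorticoids followed the same hearts in part. Of 27 measured genes of a second list, 21 had a positive r with the mean of the 9 induced genes, with a median of 0.365, against 48.3% positive and a median of -0.0173 over all genes. An r of at least 0.7 was reached by 9 of the 27, or 33.3%, against 2.59% of all genes. Those 9, named after their values were seen, were the sulfotransferase gene Sult1a1 (0.934), the transcription factor gene Cebpb (0.924), the arrestin-domain gene Arrdc2 (0.902) and Foxo3 (0.900), a driver of atrophy genes. The rest were Hif3a (0.893), the sestrin gene Sesn1 (0.874), the NF-kappaB inhibitor gene Nfkbia (0.791), Klf15 (0.785), a regulator of heart metabolism, and the glutamine synthetase gene Glul (0.715). The list was chosen with earlier results of these data known, so these shares are a description and not independent evidence.

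Sesn1 was -0.0080, -0.16, 0.32 and 0.0080 in the females and 0.034, 0.038, -0.29 and -0.48 in the males. Arrdc2 was -0.28, -0.050, 0.29 and 0.24 in the females, against 0.050, 0.097, -0.28 and -0.26 in the males. As for the mean of the 9 induced genes, female 3 was the highest for both and males 3 and 4 were low, and Arrdc2 was as low in female 1. Other genes of the list did not follow: r was -0.033 for Pdk4, an inhibitor of glucose oxidation, -0.369 for the phosphatase gene Dusp1 and -0.541 for the ubiquitin ligase gene Trim63.

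Between the sexes 0 of these 27 genes passed limma over all genes, and 2 had an unadjusted p under 0.05, a share near the 6.96% of all genes. They were Angptl4, an inhibitor of lipoprotein lipase, with a difference of -0.28 (adjusted p = 0.633), and the ubiquitin protease gene Usp2, with 0.11 (adjusted p = 0.633). Rasd1 had a difference of 0.12 (adjusted p = 0.726). Of the list, 18 genes lay higher in females and 9 lower, and the median difference was 0.038, against -0.00058 over all genes.

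The genes that carry or convert the hormone signal were taken next. Of 11 measured genes for the mineralocorticoid receptor, receptor chaperones, coactivators and steroid-converting enzymes, 5 had a positive r with the mean of the 9, with a median of -0.299, against 48.3% and -0.0173 over all genes. The coactivator gene Ncoa2 had the most negative, -0.785, over a narrow range. Of these 11 genes 0 passed between the sexes in limma and 1 had an unadjusted p under 0.05, against 6.96% of all genes. This was Hsd11b1, whose enzyme regenerates active corticosterone from its inert form inside cells. It was -0.051, -0.26, -0.0094 and -0.028 in the females, against 0.24, 0.27, 0.44 and 0.0094 in the males. Each female heart was below each male heart, while 3.74% of all genes had no overlap between the sexes in either direction. The difference was -0.33 ± 0.090 (SE, limma adjusted p = 0.504). Its r with the mean of the 9 induced genes was 0.107. The chaperone gene Hspa8 had a difference of 0.13 and Ncoa2 one of -0.044 (adjusted p = 0.726 and 0.885).

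Lists for the other known inputs of these genes were described in the same way, and no test compared the lists. Over all genes 48.3% had a positive r with the mean of the 9, with a median of -0.0173, and 2.59% reached 0.7. Of 7 zinc handling genes 5 had a positive r with the mean of the 9, with a median of 0.144. Mtf1, the gene of the factor that binds metal response elements, had an r of 0.0842 and a sex difference of -0.089 (limma adjusted p = 0.784), and the zinc transporter genes Slc39a1 and Slc39a8 had differences of -0.12 and 0.13. Of 9 p53 target genes 7 were positive, with a median of 0.0857, and 1 reached 0.7, the autophagy-linked gene Trp53inp1 at 0.905. Phlda3, a repressor of Akt, had the smallest p of that list between the sexes, with a difference of 0.21 (unadjusted p = 0.0285, limma adjusted p = 0.662), and Ccng1 and Trp53inp1 had -0.042 and 0.13. Of 10 genes of the mTORC1 brake and of stress responses that share inputs with Ddit4, 6 were positive, with a median of 0.102. The brake subunit gene Tsc1 reached 0.771, and its partner Tsc2 was at -0.505. Sex differences of Tsc2, Chac1 and Bnip3 were -0.093, 0.15 and 0.13. None of these 3 lists had a gene past the threshold between the sexes in limma, and 1 gene, Phlda3, had an unadjusted p under 0.05, against 6.96% of all genes.

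Of 14 measured circadian clock genes 4 had a positive r with the mean of the 9 induced genes, against 48.3% of all genes, and the median was -0.276, against -0.0173. The repressor gene Bhlhe41 was at -0.735 and Nr1d1, which encodes the clock repressor REV-ERB alpha, at -0.654. Nr1d1 was -0.33, 0.15, -0.72 and 0.21 in the females and -0.32, -0.15, 0.28 and 0.59 in the males. Its highest heart, male 4, and its lowest, female 3, were the lowest and the highest for the mean of the 9, while female 4 was above the median of Nr1d1 and high for the 9. Between the sexes 0 clock genes passed limma and 2 of the 14 had an unadjusted p under 0.05, against 6.96% of all genes, Per3 with a difference of 0.17 and Arntl with -0.20 (adjusted p = 0.499 and 0.633). Nr1d2 had a difference of 0.13 (adjusted p = 0.726). The hour at which each heart was taken is not given beyond the shared window, blood corticosterone is not among the values used here, and the part of either in the shared variation was not tested.

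Markers of other cells were set against the same mean, and 0 marker genes had an r of at least 0.7, against 2.59% of all genes. Over all genes 48.3% had a positive r with this mean, and the median was -0.0173. Endothelial markers had a positive r in 3 of 6 genes, from -0.730 for the receptor gene Kdr to 0.559 for Pecam1. Macrophage markers had a positive r in 6 of 6 genes, with a median of 0.315 and list means from -0.16 to 0.071 in females and -0.084 to 0.025 in males. Adipocyte markers were positive in 7 of 7, with a median of 0.238 and list means from -0.11 to 0.44 in females and -0.21 to 0.041 in males. Atrial genes were positive in 6 of 6, with a median of 0.139. Medians were 0.239 for 5 lymphocyte, 0.151 for 6 endothelial, 0.044 for 6 neutrophil and 0.0094 for 8 fast skeletal muscle genes. They were -0.117 for 6 fibroblast, -0.241 for 8 cardiomyocyte and -0.326 for 6 liver genes, and the 1 red blood cell gene measured, Slc4a1, had an r of 0.592. Their part in the shared variation was not tested. Without the 2 hearts highest for liver markers, females 1 and 2, all 36 pairs of induced genes were positive with a median r of 0.764. Without the 2 highest for fast skeletal muscle, males 1 and 2, all 36 were positive with a median of 0.726. Those males lay near the middle for the mean of the 9, so the outermost hearts remained. Both settings were chosen after seeing the data and do not test the part of these tissues. Of the 45 pairs 0 passed the threshold in either setting, and 15 and 9 had an unadjusted p under 0.05 (exact permutation test), against 15 with all hearts.

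Genes with the most similar profile over the 8 hearts were sought among 17328 named genes. The mean of the 10 genes was matched most closely by Fmo2, which encodes a flavin-containing monooxygenase, with an r of 0.970. Fmo2 was -0.25, -0.34, 0.37 and 0.32 in the females, against 0.19, 0.22, -0.19 and -0.44 in the males. Females 3 and 4 and males 1 and 2 were thus high and the other 4 hearts low. Prickle3 (0.966), the alcohol dehydrogenase gene Adh1 (0.957), Tmem72 (0.947) and Nlrp4a (0.946) came next.

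Fkbp5 was matched by Fam20a (0.962), Dock6 (0.956), Syngr3 (0.943), the lactate transporter gene Slc16a3 (0.938) and Nlrp4a (0.936). The closest gene was Fmo1, a relative of Fmo2, for Ddit4 (0.975), Ntsr2 for Mt2 (0.981), Myocos for Mt1 (0.955) and Mfsd13b for Zbtb16 (0.975). It was Pmel for Klf9 (0.970), Ascl3 for Tsc22d3 (0.961), Ift46 for Cdkn1a (0.952), Spag17 for Sgk1 (0.937) and Klhl28 for Nr3c1 (0.962). Such values are usual with 8 hearts: the median over the 17328 genes of the highest r with any other gene was 0.969. Several of these genes varied very little, with an SD over the hearts of 0.021 for Nlrp4a and Tmem72 and 0.025 for Spag17, against 0.32 for Fmo2.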

How the data were processed

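Hearts of 4 female and 4 male Pcyt2+/- mice were measured on 8 arrays. The deposited table holds log2 values for 34351 probe sets, each relative to its own median (tolerance 1e-06). The log base is taken as 2, and the sources used here do not give the background correction, normalization, summarization or genome build. Biotinylated cRNA was made from 100 ng of total RNA, per the labels' protocols. The labels call the hearts biological replicates. The number of arrays limits the precision, and brightness is not held in centred values.

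Probe sets with 1 symbol in the platform annotation (23521) were averaged to 22180 genes. A further 1814 had several symbols and 9016 none. Differences, females minus males, came from limma (version 3.58.1; R 4.3.3) with a term for sex alone and moderated variances, and p-values were adjusted by Benjamini-Hochberg over all genes (threshold 0.05). Correlations over the 8 hearts were tested by exact two-sided permutation (Python 3.11.15, numpy 2.4.6), with a smallest possible p of 4.96e-05. Both codes were tested on simulated data. Genes and lists were chosen with earlier results of these data known, so their p-values are not independent evidence. Of each pathway list, the 3 genes with the smallest p between the sexes were named, and for likeness the genes of highest r. Any other gene was named after its values were seen. Alternatives are given in the closing section. No dim-probe filter was run.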

Additional observations from a re-analysis of the deposited data

Results flagged for a closer look

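Each gene's values in each sex were searched for a single heart far from the other 3, by the gap to its nearest neighbour over the whole range (Dixon's test at the 95% level). Of 20 groups, 2 were past its critical value, and chance gives about 1 in 20. Cdkn1a in male 1 had a ratio of 0.907, at -0.28 against -0.00024 to 0.028 in the other males. Mt1 in male 4 had a ratio of 0.933, at -0.36 against -0.0079 to 0.018 in the other males.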

How the results depend on the processing

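Between the sexes, leaving out genes below the median spread gave 103 genes past the threshold and 1 of the 10 genes studied, Zbtb16, through the larger prior degrees of freedom given above. Leaving out the 2 hearts with the highest fast skeletal muscle markers, a setting chosen after seeing the data, gave 4 genes, and leaving out single hearts 4 to 7. In every other setting the 10 genes and the 27 further glucocorticoid-responsive genes had 0 calls. The sign of the sex difference is unsettled for 6 of the 10 genes. With single hearts left out it ran from -0.14 to 0.056 for Fkbp5, -0.072 to 0.031 for Sgk1, -0.032 to 0.20 for Cdkn1a, -0.13 to 0.14 for Mt1, -0.0041 to 0.26 for Ddit4 and -0.026 to 0.039 for Nr3c1. Without the 2 hearts highest for liver markers, also chosen after seeing the data, Fkbp5 was at 0.20, Sgk1 at 0.047, Mt1 at 0.33 and Nr3c1 at -0.049. Without the 2 highest for fast skeletal muscle Fkbp5 was at 0.15 and Mt1 at 0.089, and quantile normalization gave Mt1 0.0097. The cause was not tested. Tsc22d3, Klf9, Zbtb16 and Mt2 stayed higher in females in all 17 alternatives, but their size moved: with single hearts left out it ran from 0.12 to 0.23, 0.13 to 0.25, 0.16 to 0.55 and 0.11 to 0.39 in that order.

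The number of correlated pairs ran from 0 to 4 with single hearts left out and was 3 without the receptor gene, a setting added after seeing the data. Of 268 recomputed values of the 15 pairs, 0 changed sign and 12 passed the threshold. These pairs were picked by their p in the same hearts, so kept signs say little. The count of positive pairs among the 36 ran from 31, without female 3, to 36. Their median r ran from 0.487, without the 2 hearts farthest from the median of each pair's first-listed gene, to 0.809. That last value came with the replicate number as a block, where 0 pairs could pass because the smallest possible p is 0.125. In the fit between the sexes the replicate block gave 8 genes and 0 of the 10. Same-numbered hearts had correlations of their deviations across genes of 0.137, 0.0972, 0.00618 and 0.0906, all positive. Hearts with different numbers ran from -0.130, for female 2 and male 1, to 0.0955, for female 2 and male 4. The labels do not say what the numbers stand for beyond replicates, so they were not taken as pairs. Whether same-numbered hearts share a source of variation was not tested.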
